A study of Homo sapiens with 30 samples.

Results

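Tumour necrosis factor alpha (TNFa) was given to Eahy926 cells at 10 ng/ml for 24 h, and open chromatin was compared with that of untreated Eahy926 cells prepared on the same day. The libraries were taken by their labels: 3 TNFa libraries and 3 untreated libraries of preparation day 1, which are 6 of the 30 ATAC-seq libraries of the series. Eahy926 is a human endothelial hybrid line, made by fusing umbilical vein endothelial cells with a lung carcinoma line, and the cells used were parental, without any edit. All Eahy926 cells were grown in DMEM with serum, a medium that normally lacks VEGF. Other Eahy926 libraries used below were 3 with 10 ng/ml IL1b for 24 h, 3 with VEGF added for 24 h and 3 untreated libraries of preparation day 0. TeloHAEC, a telomerase-immortalised aortic endothelial line kept in medium with VEGF, gave 3 libraries with the same TNFa treatment and 3 untreated ones of day 1. The replicates of a group are called biological replicates in the labels. Every Eahy926 library came from the same line, so the spread is that between cultures of 1 line.

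TNFa binds TNF receptors, which gather the adaptor TRAF2 and the ubiquitin ligases BIRC2 and BIRC3 into a complex that frees NF-kB from its inhibitors. In endothelial cells NF-kB then turns on chemokines, leukocyte adhesion molecules and its own inhibitors. TNFa also acts on interferon response genes and AP-1 factors. ATAC-seq reads open chromatin through the Tn5 transposase, which inserts adapters where DNA is not covered by nucleosomes.

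Promoter sequences of 4 genes are given as background. BIRC3 and IL32 are shown because their promoter regions passed the test as higher with TNFa, and TTC19 because the region at its start was called lower. TNFAIP3 was picked from the promoter regions that stood nearer the top in each TNFa library than in any untreated one. Of 210 tested regions within 1 kb of the start of a gene in the lists used below, 18 did so (8.57%), against 6.07% of all tested regions. NFKBIA, another NF-kB target, did not pass and is not shown. The 4 genes are a picked set, so their matches are no pattern. Each sequence is the 250 bases before the gene's start, from RefSeq (GRCh38.p14), 5′ to 3′ on the gene's strand, and capitals mark matches to the NF-kB consensus on either strand. BIRC3 is read at chr11:102317234-102317483, IL32 at chr16:3065153-3065402, TNFAIP3 at chr6:137867009-137867258 and TTC19 at chr17:15999574-15999823, each on the plus strand. IL32 has 2 starts in that table, of which the first is shown. The OAS2 promoter, which also passed as higher, was not among these sequences and was not read for the consensus.
BIRC3: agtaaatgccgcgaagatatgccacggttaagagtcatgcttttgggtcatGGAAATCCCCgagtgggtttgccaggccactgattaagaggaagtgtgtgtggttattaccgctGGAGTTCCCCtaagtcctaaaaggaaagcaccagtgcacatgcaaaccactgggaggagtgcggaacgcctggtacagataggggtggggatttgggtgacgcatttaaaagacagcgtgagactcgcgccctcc
IL32: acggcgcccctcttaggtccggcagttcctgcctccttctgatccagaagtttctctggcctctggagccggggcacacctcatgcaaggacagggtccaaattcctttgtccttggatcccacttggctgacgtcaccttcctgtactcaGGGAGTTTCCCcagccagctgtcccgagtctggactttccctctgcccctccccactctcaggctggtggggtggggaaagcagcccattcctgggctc
TNFAIP3: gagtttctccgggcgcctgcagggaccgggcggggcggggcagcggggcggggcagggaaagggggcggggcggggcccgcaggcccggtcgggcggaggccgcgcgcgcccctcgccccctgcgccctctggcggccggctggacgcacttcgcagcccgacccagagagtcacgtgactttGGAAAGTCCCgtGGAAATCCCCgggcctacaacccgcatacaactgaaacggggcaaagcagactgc
TTC19: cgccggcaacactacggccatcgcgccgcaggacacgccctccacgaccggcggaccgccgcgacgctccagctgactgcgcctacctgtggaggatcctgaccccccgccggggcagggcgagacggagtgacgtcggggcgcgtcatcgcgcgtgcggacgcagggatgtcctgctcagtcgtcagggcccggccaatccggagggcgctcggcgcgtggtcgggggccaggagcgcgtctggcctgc
BIRC3 held 2 matches, 199 to 190 and 135 to 126 bases before the start, and TNFAIP3 held 2, 67 to 58 and 55 to 46 bases before it. In IL32 the consensus was met on both strands by 2 overlapping matches that span 99 to 89 bases before the start. TTC19 held none in this window. Of 35116 RefSeq promoters read over the same 250 bases on both strands, 9.96% held the consensus and 6.57% the AP-1 motif TGANTCA, which was found in none of the 4 windows shown. A match describes letters only, and binding was not measured. The sequences are on GRCh38 and the tested regions on hg19, and whether they overlap was not checked.

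The deposited peak lists give no read counts per region, so accessibility was read from the order of peaks. Peaks were sorted in each library by the p-value the authors gave them, and the first 49774 were kept. A region's place is the position of its peak in that order, 1 being the strongest. The rank score is log2 of 49775 over the place and 0 without a peak, so that a change of 1 means a place 2 times nearer the top. A strong peak is one of the first 45000 in its list. TNFa libraries kept 6436809, 5218141 and 4138663 tags after removal of duplicates, against 7456417, 5445823 and 5787194 in the untreated libraries. The group with TNFa was therefore somewhat less deeply sequenced, and its lists were shorter before they were cut (60478 to 75234 peaks against 73837 to 83235). The fragment length estimated in peak calling was 117, 120 and 140 bases with TNFa and 109, 113 and 116 in the untreated libraries. Its part in peak edges and in the results was not tested. All positions of regions are hg19, and distances are to gene starts written by hand, which may be off by some kb.

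The labelled cell type was checked at marker promoters. A strong peak lay within 1 kb of the start for 11 to 12 of 23 endothelial markers in TNFa libraries and 10 to 13 in untreated ones, with CDH5, KDR, TIE1, ROBO4 and ENG covered in all 6. PECAM1, ERG, ESAM and EMCN had none at the start used. For epithelial markers the numbers were 3 to 5 of 19 with TNFa and 4 to 6 without, with GRHL1 and KRT8 covered in all 6 and none at EPCAM, CDH1 and GRHL2. Blood cell markers gave 2 of 16 in every library, with none at PTPRC, CD14 and SPI1, and mesenchymal markers 2 to 3 of 16.

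The main comparison asked which regions TNFa opened or closed over 24 h. Across 56650 tested regions, limma called 151 (0.267%), of which 143 were higher with TNFa (0.252%) and 8 lower (0.0141%). At an unadjusted p under 0.05 the number was 4970 (8.77%), with 2777 higher (4.90%) and 2193 lower (3.87%). The 143 rises had a median change of 2.06 (from 0.99 to 4.75), and their median place with TNFa was 11756, so that they reached the upper part of the lists. In 81 of the 143 rises no untreated library of day 1 had a strong peak, and in 68 none had any peak in its list. For such regions the controls add no spread, so their p-values can be too small. The filter asked for a strong peak in at least 3 libraries, and 59 rises met it only with all 3 TNFa libraries, so that they had to be high with TNFa to be tested at all. All 143 rises had the 3 TNFa libraries above the 3 untreated ones without overlap, where 6.07% of all tested regions did, and 7 of the 8 falls had them below, where 6.29% did. The count fell to between 38 and 106 when any 1 of the 6 libraries was left out. It was lowest without untreated replicate 1 and over 1.5 times smaller without each library other than TNFa replicate 2. In each of those 6 fits 14 rises and 2 falls were called, and 53 of the 143 rises and 2 of the 8 falls were called in none. A region under the filter in a fit counts as not called there. With log2 of the kept tags as a term in the fit, a setting added after the tags per library were seen, 82 of the 143 rises and 3 of the 8 falls kept their call, and 90 regions were called in all. A fit of the TNFa and untreated libraries alone called 23 regions, among them 16 of the 143 rises and 5 of the 8 falls. With normal scores of the rank in place of the log2 score, 112 were higher and 31 lower.

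**Figure D1:**
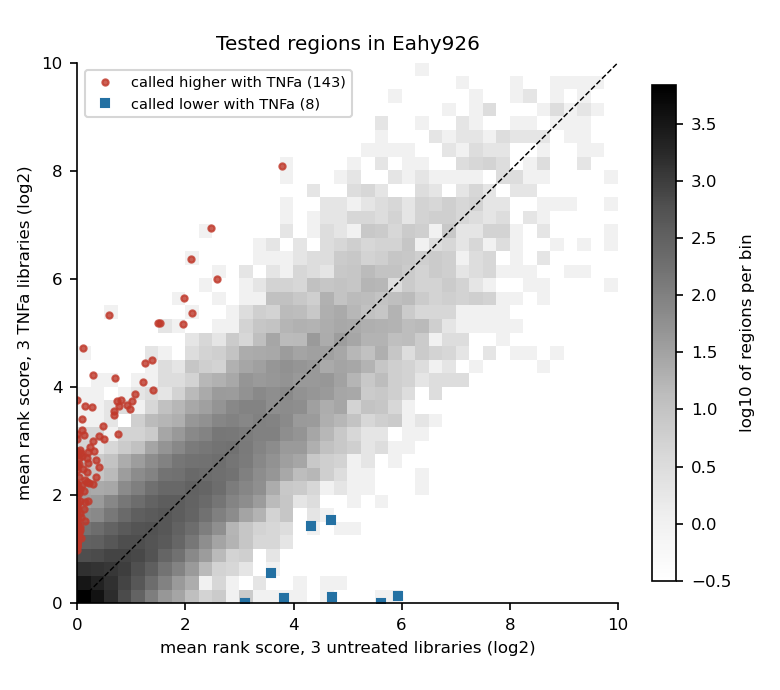
Mean rank score of each tested Eahy926 region in the 3 untreated libraries (x axis, log2) against the 3 TNFa libraries (y axis, log2), with grey shades for the log10 number of regions per bin and the dashed line for equal scores. The 143 regions called higher (circles) lie above the line, mostly at untreated scores near 0, and the 8 called lower (squares) lie below it.

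Members of the list of TNF receptors and signalling adaptors stood within 50 kb of 5 of the rises. The list also holds IRAK2, a kinase of other receptors, and 1 of the regions is the IL32 promoter, near TNFRSF12A. BIRC3, the ubiquitin ligase of the TNF receptor complex, had its promoter region (chr11:102187849-102188349) at places 11225, 15644 and 18637 with TNFa and at 38435 in untreated replicate 1, with no peak in the other two. The TNFa libraries were all ahead of the untreated ones, and the score rose by 1.62 ± 0.33 (SE, n = 3 against 3, limma adjusted p = 0.0206). This is the promoter with the 2 consensus matches shown above. TRAF2, the adaptor that links TNF receptors to kinases, had a region 3.8 kb upstream of its start (chr9:139776870-139777370) at places 17316, 20643 and 21717 with TNFa. No untreated library had a peak there, and the change was 1.33 ± 0.26 (limma adjusted p = 0.0176). The TRAF2 region was tested only through its TNFa peaks and falls under the filter without any 1 of them, as do the IL32 and EGR1 regions and chr17:9292368-9292868 below.

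FAS encodes a death receptor of the TNF receptor family. A region 41.8 kb downstream of its start (chr10:90791876-90792376) stood at 11446, 31175 and 18348 with TNFa and at 44732 in 1 untreated library (change 1.36 ± 0.31, limma adjusted p = 0.0474). IRAK2 encodes a kinase that carries signals of IL1 and Toll-like receptors. A region 34.3 kb downstream of its start (chr3:10240659-10241159) went to places 1671, 711 and 5638, while untreated libraries had 39701 and no peak in the others. The change there was 4.61 ± 0.58 (limma adjusted p = 0.000486), and the region at the IRAK2 start itself did not pass (-0.13 ± 0.50, limma adjusted p = 0.974). In the authors' own peak values, the IRAK2 peak had a fold enrichment of 10.9, 12.9 and 9.30 in the TNFa lists. The call at IRAK2 was lost when a peak had to cover 80% of the shorter interval (change 1.52, limma adjusted p = 0.629).

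The cytokine and interferon lists had 3 calls, of which IL32 is also counted in the receptor list. IL32, a cytokine gene, had its promoter (chr16:3115035-3115535) at places 14607, 13146 and 37309 with TNFa and without a peak in untreated cells (1.37 ± 0.31, limma adjusted p = 0.0474). The same region lies within 50 kb of TNFRSF12A and is the fifth region counted for the receptor list. CSF2 encodes the granulocyte-macrophage colony-stimulating factor. A region 21.2 kb downstream of its start (chr5:131430425-131430925) had peaks in all 6 libraries, at 6966, 8426 and 8573 with TNFa and 39137, 38108 and 40376 without. The 2 groups were each tight here and did not overlap (change 2.30 ± 0.51, limma adjusted p = 0.0431). OAS2, an interferon-induced enzyme that senses viral RNA, had its promoter (chr12:113415986-113416486) open in both conditions. Its places were 7914, 5200 and 1507 with TNFa and 28917, 31124 and 27516 without, a change of 2.88 ± 0.56 (limma adjusted p = 0.0167). Without TNFa replicate 3, the library with the best place, OAS2 had an adjusted p of 0.108 in limma.

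A guidance receptor and an early response factor were also near called regions. NRP2, a co-receptor for semaphorins and VEGFC, had a region 30.2 kb downstream of its start (chr2:206577157-206577657) at 5240, 15885 and 14179 with TNFa, against 33998 in 1 untreated library (2.05 ± 0.41, limma adjusted p = 0.0205). At the NRP2 promoter the value was -1.12 ± 0.57 (limma adjusted p = 0.59). EGR1, an immediate early zinc finger factor, had a region 4.0 kb upstream (chr5:137796946-137797446) at 24539, 25877 and 15308 with TNFa and no peak without (1.22 ± 0.26, limma adjusted p = 0.0286). Its promoter had peaks in all 6 libraries and a value of -1.01 ± 0.68 (limma adjusted p = 0.718). At IRAK2, NRP2 and EGR1 the called region was thus away from the start, and the start itself did not pass. Most of these calls depended on the settings. Over the alternatives in which it could be tested, the CSF2 region was called in 3 of 16, FAS in 3 of 15, EGR1 in 4 of 13, IL32 in 5 of 11, TRAF2 in 6 of 13 and OAS2 in 7 of 16. BIRC3 and NRP2 were each called in 10 of 16 and IRAK2 in 14 of 16.

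**Figure D2:**
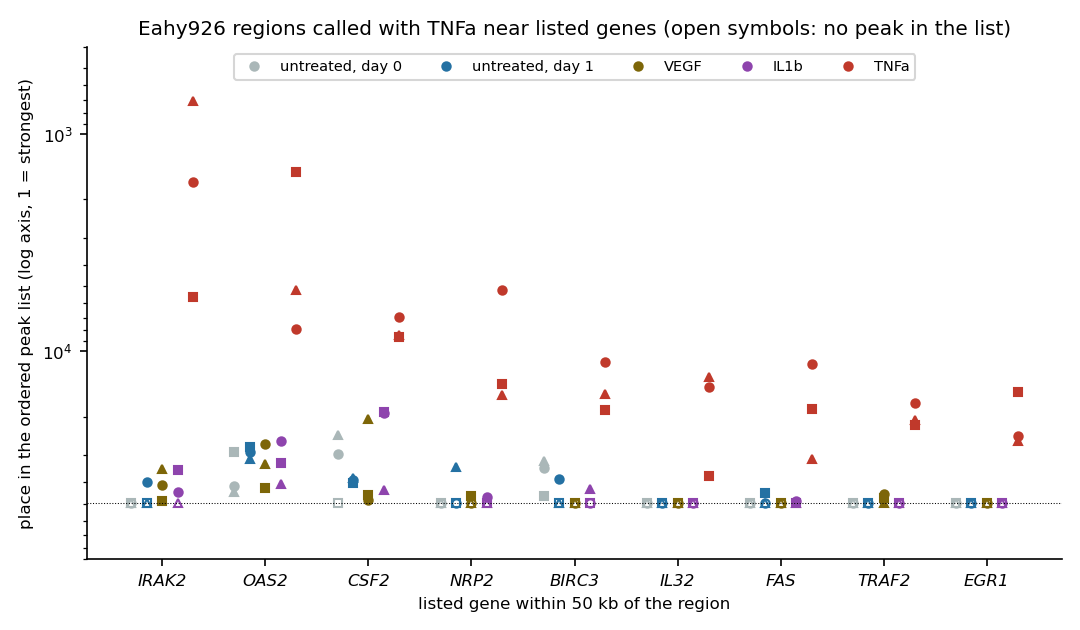
Place in the ordered peak list (y axis, log scale, strongest at the top) of 9 regions called with TNFa within 50 kb of listed genes, in 15 Eahy926 libraries. Colours mark the groups, symbol shapes the replicates, and open symbols on the dotted line have no peak in the list. The TNFa libraries stand above the untreated libraries of day 1 at each gene.

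Calls were also counted by list, beside the 0.252% of all tested regions called higher. Within 50 kb of the start of any listed or marker gene 10 of 1538 were (0.65%), not all of them reported here. The list of TNF receptors and signalling adaptors had 5 of 145 tested regions called higher, chemokines and cytokines 2 of 114, and interferon response and antigen presentation 1 of 156. AP-1 and immediate early genes had 1 of 225, and VEGF and vessel guidance genes 1 of 132. None was called for NF-kB subunits (31 tested), NF-kB feedback inhibitors (74), leukocyte adhesion molecules (58), flow response and CCM complex genes (50) or housekeeping promoters (71), and in no list was a region called lower. At 0.252%, a list of 31 to 74 regions can easily hold no call, so these empty lists are no result. At an unadjusted p under 0.05 limma had 4.90% of all tested regions higher and 3.87% lower. There were 6 higher and 3 lower for the feedback inhibitors, 0 and 1 for the subunits, and 0 and 1 for the adhesion molecules. The receptor list had 12 and 5, chemokines and cytokines 5 and 1, and the interferon list 11 and 4. AP-1 and immediate early genes had 8 and 6, and VEGF and vessel guidance genes 4 and 5. Within 1 kb of listed starts 3 of 210 regions were called (1.43%, against 0.252% of all), at BIRC3, IL32 and OAS2. Median changes per list lay between -0.08 and 0.10, where the median over all tested regions was -0.03. The lists were chosen with earlier results of these data known, and their counts are a description.

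Classical TNF targets were followed by name whether or not they moved. TNFAIP3, the ubiquitin editor that limits NF-kB, had its promoter (chr6:138188012-138188512) at 8336, 2961 and 4814 with TNFa and at 12876, 18165 and 21205 without. The groups did not overlap, but the change of 1.79 ± 0.58 did not pass (limma adjusted p = 0.278), and with 80% overlap its value was -0.19. IRF1, an interferon regulatory factor, had places 360, 510 and 312 at its promoter with TNFa and 3916, 2309 and 443 without (2.04 ± 0.98, limma adjusted p = 0.562). CXCL8, a neutrophil chemokine, stood at 15851, 5172 and 9408 with TNFa and 18840, 25152 and 12726 without, with groups that overlapped (0.99 ± 0.59, limma adjusted p = 0.666). The CSF2 promoter had 1.21 ± 0.59 (limma adjusted p = 0.571) and the region nearest CCL2, 2.5 kb upstream of this monocyte chemokine, 0.82 ± 0.47 (limma adjusted p = 0.647).

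Values near 0 were seen at other genes of the pathway. NFKBIA, the inhibitor that NF-kB induces first, had -0.27 ± 0.56 at its promoter (limma adjusted p = 0.941), with places from 9232 to 18393 with TNFa and from 11950 to 12508 without. ICAM1, a ligand for leukocyte integrins, had a peak in 1 library of each group in its nearest tested region (0.03 ± 0.37). Values below 0 that did not pass stood at the promoters of CXCL1, a neutrophil chemokine (-0.35 ± 0.35), and EDN1, which encodes the vasoconstrictor endothelin (-0.70 ± 0.55). The nearest tested regions of CCL20, a lymphocyte chemokine, and CXCL10, an interferon-induced chemokine, had -0.63 ± 0.82 and -0.40 ± 0.52, and the latter lies closer to CXCL9. VCAM1 had no tested region within 50 kb. Of the subunit genes, NFKB2 had 0.65 ± 0.62, NFKB1 0.42 ± 0.26 and RELB -0.16 ± 0.26. The endothelial genes CDH5, which encodes VE-cadherin, and KDR, which encodes a VEGF receptor, had promoter values of 0.61 ± 0.41 and 0.12 ± 0.51. Of the 28 named genes with a tested region, BIRC3, IL32 and OAS2 passed at the promoter or nearest region, and no other did. A p that misses the threshold here leaves changes of 1 or more within reach, since the standard errors ran up to 0.98.

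**Figure D3:**
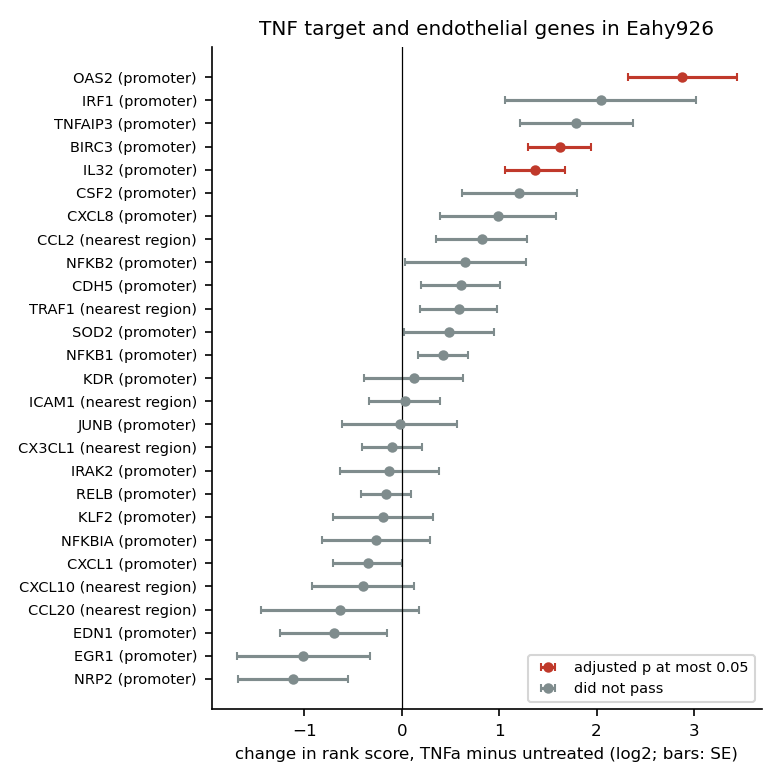
Change in rank score, TNFa minus untreated (x axis, log2, bars SE, n = 3 against 3), at the promoter or nearest tested region of the named genes in Eahy926. OAS2 (2.88), BIRC3 (1.62) and IL32 (1.37) passed, and the others did not, with standard errors of up to 0.98.

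The largest rises lay elsewhere. The first was 0.6 kb upstream of the start of SNX5, a sorting nexin (chr20:17949858-17950358), with places 4220, 292 and 1502 with TNFa and 29251, 24908 and no peak without (4.75 ± 0.67, limma adjusted p = 0.000621). This value rests on how peak edges were matched. When any overlap counted, untreated libraries had places 363, 24908 and 2630 there and the change was 1.23 ± 1.43 (limma adjusted p = 0.878). A region 3.2 kb upstream of NSFL1C, a cofactor of the ATPase p97 (chr20:1450784-1451284), had peaks in all 6 libraries. Its places were 868, 256 and 968 with TNFa and 10168, 10453 and 14734 without (4.28 ± 0.70, limma adjusted p = 0.0031), and with any overlap they were the same. A region 45.7 kb downstream of the start of TDG (chr12:104405030-104405530) came close to the top of the list, at 238, 185 and 140 with TNFa against 4994, 1879 and 4912 without (4.29 ± 0.96, limma adjusted p = 0.0461), and was called in 3 of 16 alternatives.

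Most other large rises had none of the gene starts used here within 50 kb. These starts cover only part of the genes, so a nearer gene may exist. At chr2:151537874-151538374 the places were 219, 1091 and 280 with TNFa and 8922, 7186 and 11265 without (4.47 ± 0.73, limma adjusted p = 0.0033). At chr15:102119958-102120458 they were 4283, 655 and 6635 against 39592, 40330 and 42572 (3.94 ± 0.62, limma adjusted p = 0.00255). The region at chr17:9292368-9292868 had no peak in any untreated, IL1b or VEGF library of Eahy926 and stood at 7871, 5170 and 1228 with TNFa (3.76 ± 0.53, limma adjusted p = 0.000679). On chromosome 5, rises of 3.69 ± 0.68, 3.67 ± 0.71 and 3.67 ± 0.77 were called at chr5:73611789-73612289, chr5:66611038-66611538 and chr5:126220007-126220507, all with peaks in every untreated library. Rises of this size therefore included regions with and without a peak in the shortened untreated lists, and no peak there does not show a region to be closed.

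Other rises were picked out after their values were seen, for genes with known parts in inflammation. TLR2, a receptor for bacterial lipoproteins, had a region 7.1 kb upstream (chr4:154598118-154598618) at 991, 1317 and 1328 with TNFa and 11106, 12005 and 11023 without (3.24 ± 0.70, limma adjusted p = 0.0361). The TLR2 region kept its place within each group closely. It stood at 3355, 786 and 2968 with IL1b, so 1 IL1b library was ahead of all TNFa libraries. F2RL1 encodes a protease-activated receptor, and a region 12.3 kb downstream of its start went from 40194, no peak and 41106 to 3700, 8891 and 11127 (2.60 ± 0.47, limma adjusted p = 0.0088). ZC3H12C, of the family of RNA-degrading inhibitors of inflammation, had a region 6.2 kb upstream with places 9966, 18997 and 17116 with TNFa and no peak without (1.75 ± 0.31, limma adjusted p = 0.00794). Smaller rises stood 3.1 kb upstream of KYNU, an enzyme of tryptophan breakdown (1.33 ± 0.28, limma adjusted p = 0.0328), and 28.0 kb downstream of the start of CAV1, the main protein of caveolae (1.30 ± 0.28, limma adjusted p = 0.0308).

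The 8 falls were larger in size than most rises, with a median of -3.43, and all 8 had a strong peak in each untreated library. The region 0.5 kb from the start of NTHL1, a DNA repair gene (chr16:2097079-2097579), was at 1688, 317 and 995 without TNFa and at 36847, no peak and no peak with it (-5.80 ± 0.77, limma adjusted p = 0.000487). The region at the start of TTC19, a mitochondrial protein (chr17:15902293-15902793), was at 1098, 910 and 1046 without TNFa and had no peak with it (-5.62 ± 0.76, limma adjusted p = 0.000487). The 250 bases before the TTC19 start are the last sequence shown above, but they were not placed against this hg19 region. With any overlap the TNFa libraries had peaks at 3784, 3443 and 5155 in the called TTC19 region, still behind the untreated ones. The change did not pass (limma adjusted p = 0.507).

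Peak edges touched most of the falls. When any overlap counted, 4 of the 8 kept their call and 3 of 8 had the same places, whereas 137 of the 143 rises kept their call and 138 had the same places. With 80% overlap required, 0 of the 8 falls and 63 of the 143 rises were called. At a region 25.4 kb upstream of PIGG (chr4:467308-467808) the change went from -4.59 to 0.08, at the ZNF326 start (chr1:90460880-90461380) from -3.71 to -0.85, and at chr8:107071985-107072485 from -3.02 to -0.28. The region at chr20:22697335-22697835 (-2.89 ± 0.65) went to 1.44 when 80% overlap was required. The 3 falls with the same places at an overlap of 1 bp were the last of these, one 45.6 kb downstream of the start of TOMM20 (chr1:235246353-235246853, -3.11 ± 0.65, limma adjusted p = 0.0284) and one at chr2:145559323-145559823 (-3.15 ± 0.68, limma adjusted p = 0.0353). Near TOMM20 no TNFa library had a peak, and the untreated ones stood at 2500, 19954 and 3863. At 80% overlap the region near TOMM20 was below the filter and not tested, and that at chr2:145559323-145559823 was tested and not called.

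The untreated libraries of day 1 stood apart from the other Eahy926 groups at the falls. The median of the mean scores over the 8 was 4.51 in those libraries, against 0.13 with TNFa, 1.44 in the untreated libraries of day 0, 1.84 with IL1b and 2.24 with VEGF. IL1b minus untreated was below 0 at 8 of 8 (median -2.67, highest -0.58), where the median over all tested regions was 0. For TNFa against IL1b 0 of the 8 were called lower, where 0.0265% of all tested regions were. The falls were called for high scores in these same untreated libraries, which pushes IL1b minus untreated below 0 in advance. These values therefore describe the falls and are no test.

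Presence of peaks gave a more even picture of gain and loss. A strong peak in 3 of 3 TNFa and 0 of 3 untreated libraries was found in 708 of 107671 regions (0.658%), and the reverse in 620 (0.576%). These are counts without a test. In 210 of the gained and 211 of the lost regions, a library of the other group had a weaker peak in its list. The fit called 81 of the 708 gained and 2 of the 620 lost regions. Gained regions near listed genes outside the calls included the MMP9 promoter, of the gelatinase that degrades basement membrane, at 41060, 12714 and 9085 with TNFa and no peak without (1.57 ± 0.37, limma adjusted p = 0.0579). The APOL1 promoter (0.59 ± 0.22, limma adjusted p = 0.374) and a region 42.3 kb downstream of the start of IFI44 (1.12 ± 0.30, limma adjusted p = 0.132), both interferon-induced genes, also had peaks in all TNFa libraries and no untreated one of day 1, and each had a peak in at least 1 VEGF library.

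Lost regions near listed genes were mostly weak. A region 5.2 kb upstream of PLXND1, a semaphorin receptor, had places 30760, 25966 and 28701 without TNFa and no peak with it (-0.81 ± 0.30, limma adjusted p = 0.4). The VEGFC promoter stood at 42587, 20597 and 38976 without TNFa and had no peak with it (-0.62 ± 0.22, limma adjusted p = 0.365). Near ICAM2, an endothelial adhesion molecule, all 6 libraries had a peak, but those with TNFa were at 45048, 46561 and 49289, behind the first 45000 (-1.53 ± 0.56, limma adjusted p = 0.378). At TRADD, the first adaptor of TNF receptor 1, the untreated libraries had 18487, 30403 and 37203, and 1 TNFa library had 45269 (-0.81 ± 0.37, limma adjusted p = 0.536).

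The rises were then looked up in the other Eahy926 libraries. Of the 143, 79 had no strong peak in any IL1b library, 78 in none with VEGF, and 96 in none of the untreated libraries of day 0, where 8.08%, 7.53% and 19.7% of all tested regions had none. In 56 of the 143, no Eahy926 library outside the TNFa group had a strong peak. The filter on strong peaks and the fit, which held the IL1b and VEGF libraries, shaped these counts, so they describe the rises and are no test of a pattern particular to TNFa. The median of the mean scores over the 143 was 2.13 with TNFa, 0.02 in untreated cells, 0.02 with IL1b and 0.03 with VEGF. A rise near the ZNF768 start (chr16:30537942-30538442, 3.47 ± 0.73, limma adjusted p = 0.03) differed from this, since the IL1b libraries stood at 780, 621 and 669 those of day 0 at 642, 981 and 1218, and those with TNFa at 3971, 3920 and 1364. The untreated libraries of day 1 stood at 29884, 38909 and 24675. Tags were 30 bases long on day 0 and 40 on day 1, and the part of this in the difference between the days was not tested.

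**Figure D4:**
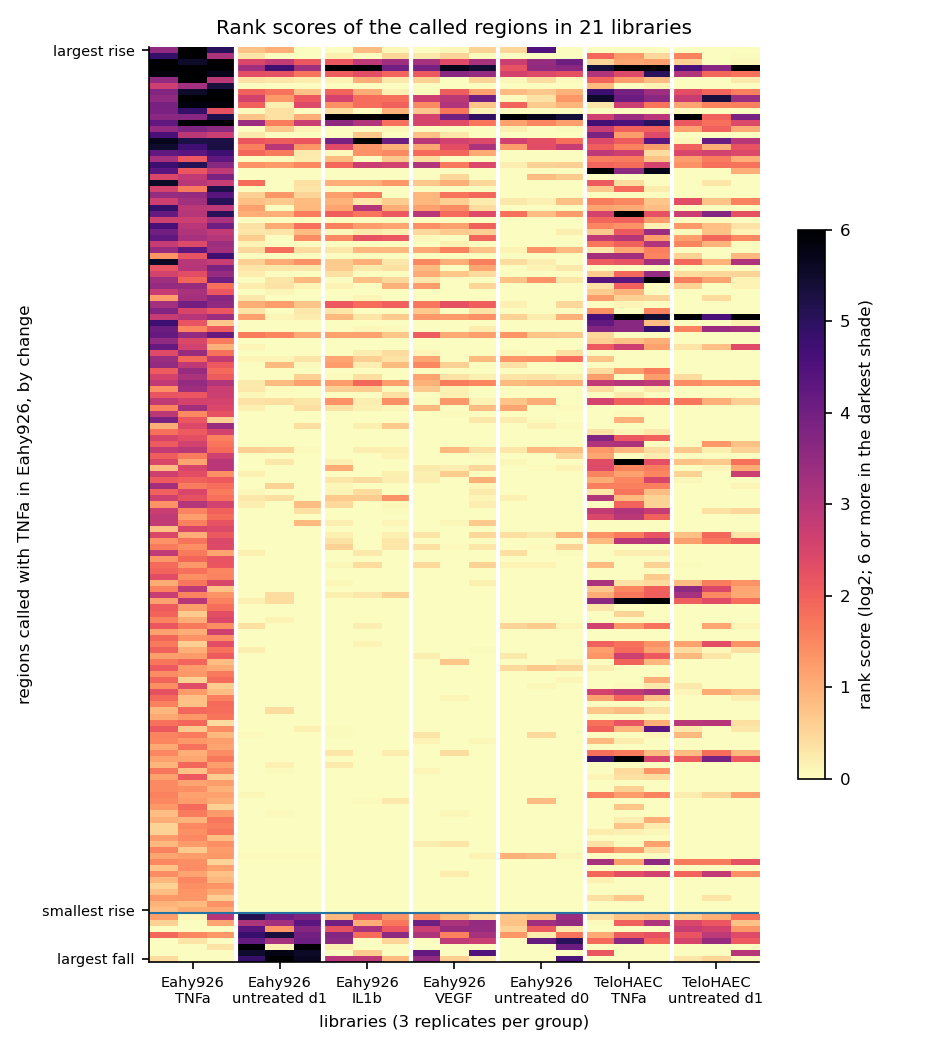
Rank scores (log2, darker is nearer the top) of the 151 called regions (rows, ordered by change, the 8 falls below the line) in 21 libraries of 7 groups (columns, 3 replicates each). Rises are dark with TNFa in Eahy926 and mostly pale in the other Eahy926 groups, and part of them are dark in TeloHAEC with TNFa.

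TNFa was set directly against IL1b in Eahy926, since both cytokines act through NF-kB. Of 56650 regions limma called 179 (0.316%), 164 higher with TNFa (0.289%) and 15 lower (0.0265%). This comparison shares the TNFa libraries with the one above, so the values are given side by side. At IRAK2, TNFa minus IL1b was 4.49 ± 0.58 (limma adjusted p = 0.000402), with IL1b libraries at 44116, no peak and 34932. The OAS2 promoter had 3.04 ± 0.56 (limma adjusted p = 0.0102), the BIRC3 promoter 1.68 ± 0.33 (limma adjusted p = 0.0152) and the NRP2 region 2.21 ± 0.41 (limma adjusted p = 0.0111). CSF2 did not pass (1.66 ± 0.51, limma adjusted p = 0.242). Its IL1b places were 19289, 43203 and 18981, and the one at 43203 was behind every untreated library of day 1. Of the falls, the TTC19 region had -0.21 ± 0.76 and the PIGG region 0.04 ± 0.97, since IL1b libraries also stood low there. Against untreated cells, IL1b itself had 2 called regions (0.00353%), 1 higher (0.00177%) and 1 lower (0.00177%). Both were also called with TNFa, as 1 of the 143 rises and 1 of the 8 falls, and the untreated libraries are the same in both tests.

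TeloHAEC peaks helped to place the regions, but its libraries took no part in the calls made in Eahy926. Of the 143 rises, 45 had all 3 TeloHAEC TNFa libraries above all 3 TeloHAEC controls, where 3.59% of all regions tested in Eahy926 did. The TeloHAEC change was above 0 in 102 of 143, below 0 in 9 and 0 in 32, against 38.7%, 40.4% and 20.9% of all tested regions. In TeloHAEC itself limma called 525 of 77247 regions (0.680%), 271 higher (0.351%) and 254 lower (0.329%). Among them were 11 of the 143, all higher, where 0.191% of all regions tested in Eahy926 were called. The largest was at chr20:61076868-61077368, where TeloHAEC libraries had 194, 4117 and 918 with TNFa and no peak, no peak and 24456 without (5.44 ± 0.71, limma adjusted p = 0.000353). In Eahy926 that region had 2437, 11091 and 6877 with TNFa and no peak without.

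Single genes also moved in both lines. A region 17.7 kb downstream of the start of GM2A, a lysosomal lipid-binding protein, was at 6961, 21715 and 13872 with TNFa in Eahy926 and 9157, 6535 and 12576 in TeloHAEC, with no peak in any control of day 1 (1.96 ± 0.36 and 2.45 ± 0.41, limma adjusted p = 0.0105 and 0.00352). FBXO32, a ubiquitin ligase subunit, had a region 12.9 kb downstream of its start that rose by 2.81 ± 0.39 and 1.70 ± 0.33 (limma adjusted p = 0.000621 and 0.0107). The NRP2 region stood at 16411, 16629 and 16439 with TNFa in TeloHAEC, against 46539 in 1 control. At FAS TeloHAEC libraries had 12534, 26500 and 2436 with TNFa and 41005, no peak and 40716 without. At OAS2 and IL32 the TeloHAEC groups overlapped (-0.26 and -0.43). Of the 8 falls, 2 had TeloHAEC TNFa libraries below the controls without overlap, and 7 had a TeloHAEC change below 0, where 4.83% and 40.4% of all tested regions did.

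The responses of the lines were also compared directly. Over 77247 regions of both lines, limma called 40 differences in response (0.0518%), 38 with the higher change in Eahy926 (0.0492%) and 2 with the lower (0.00259%). Of the regions called in Eahy926, 30 were among them, 29 rises and 1 fall, where 0.0653% of all regions tested in Eahy926 were. The Eahy926 libraries are the same in both tests, so this overlap was to some extent fixed. At the 29 rises the TeloHAEC change ran from 0 to 0.33. The FJX1 region, 19.4 kb upstream of its start, is one of them, with 1.37 ± 0.26 in Eahy926 and no peak in TeloHAEC. BIRC3 (0.15) and NRP2 (0.49) had small differences between lines, and IRAK2 (3.94 ± 0.82, limma adjusted p = 0.0712) did not pass.

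**Figure D5:**
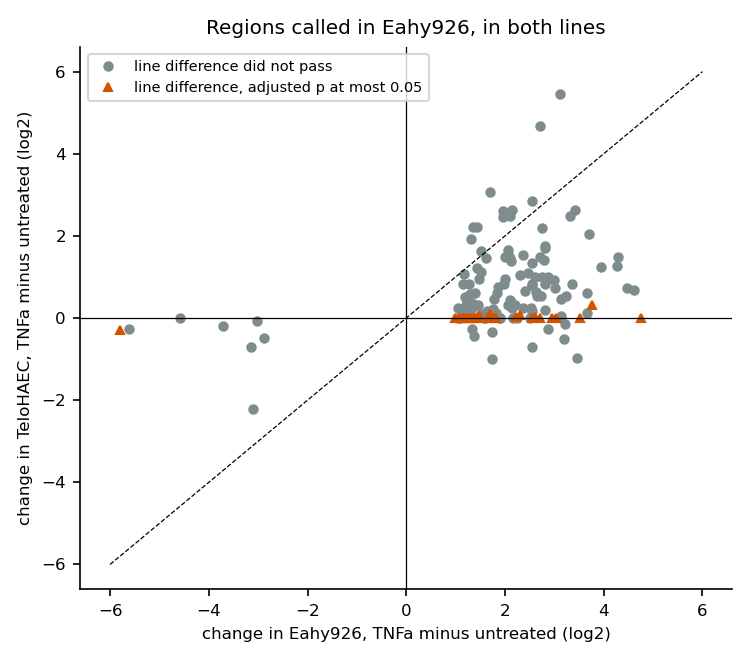
Change with TNFa in Eahy926 (x axis, log2) against TeloHAEC (y axis, log2) for the 151 regions called in Eahy926, with the dashed line for equal changes. Triangles passed the test of the difference between lines and sit near 0 in TeloHAEC, while 102 of the 143 rises are above 0 in both.

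By chromosome, rises were spread over all 22 autosomes. Chromosome 20 held 15 of the 143 (10.5%) and 3.38% of the tested regions, and chromosome 3 held 15 and 7.33%. Of the regions gained by presence 4.38% were on chromosome 20, and of those lost 3.87%. The 15 rises on chromosome 20 included the SNX5 and NSFL1C regions and the one strongest in TeloHAEC. Only 1 pair of called regions lay within 10 kb of each other, on chromosome 20, and both had the same places with TNFa (1071, 6407 and 7496).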

How the data were processed

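Peak lists of 30 ATAC-seq libraries were used. The submitters' processing notes name Bowtie2 and hg19, and per the file headers the authors called peaks in each library with MACS2 2.1.1.20160309 on single-end tags without a control. The deposited values are the authors' pileup (coverage in tags), −log10 p and q, and fold enrichment, a ratio to local background. Pileup was not compared between libraries.

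Summits of 1 interval were merged, autosomal peaks ordered by −log10 p, and lists shortened to 49774. The 45000 strongest per list defined 107671 regions of 501 bp; a peak counted in a region when it covered 50% of the shorter. Rank scores were tested with limma 3.58.1 (R 4.3.3, trend, Benjamini-Hochberg, threshold 0.05) over regions with a strong peak in at least 3 libraries of the fit: the 12 Eahy926 libraries of day 1, or the 24 of both lines. Errors of changes are SE. The fits were tested on simulated data. Python 3.11.15 was used with numpy 2.4.6, pandas 2.3.3 and matplotlib 3.10.9. The depth in tags is in the results.

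Gene starts came from general knowledge, since a gene table of hg19 was not used here. A start was kept when its spacing to a nearby written gene put it inside its own gene in RefSeq (GRCh38.p14), with a tolerance of 20 kb, which held for 428 of 442, 287 for list genes and 141 added after the called regions were seen. Members, lists and tests were chosen with earlier results of these data known. Named regions are the called regions within 50 kb of a listed gene, the 10 largest rises, the falls, a panel of 29 genes, up to 2 gained and 2 lost regions per list, and the 3 regions on each side of the threshold, whose adjusted p were 0.0482 to 0.0485 and 0.0507. Not all are printed, and some are not reported here; genes picked after their values were seen are named as such. Same-numbered replicates did not pair (median correlation of deviations -0.003, 0 of 18 pairs above 0.1).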

Additional observations from a re-analysis of the deposited data

Results flagged for a closer look

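The response to TNFa differed between Eahy926 and TeloHAEC, by the test of the difference itself in limma, at 40 regions over both lines and at 30 of the regions called in Eahy926. The filter, and TeloHAEC groups without a peak, which add no spread, shaped these counts. Among the regions named above, the difference was 4.75 at the SNX5 start, where TeloHAEC had no peak in any library; with any overlap counted the Eahy926 change there was 1.23. It was 3.43 at chr17:9292368-9292868, where 2 TeloHAEC libraries with TNFa had weak peaks. At the NTHL1 start it was -5.52, and TeloHAEC controls stood there at 40593, 35252 and 48185, already low in the lists.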

How the results depend on the processing

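Of 151 regions called with TNFa in Eahy926, counts were 72 with 80% overlap, 82 in order of fold enrichment, 78 with no filter on low values, 23 with the TNFa and control libraries alone, 394 with controls of both days and day as a term, and 90 with depth as a term (added after the data were seen). The day term takes up the day 0 libraries, all of them untreated, so the untreated mean is still that of day 1. That setting changes only the spread and the filter and is no check against day 0. With normal scores of the rank the count was 143, but 112 higher and 31 lower. For TNFa against IL1b (179) these were 100 with 80% overlap, 109 by fold enrichment and 88 with no filter. For the difference between lines (40) they were 16 with the 30000 strongest peaks, 221 with no filter and 11 with normal scores. Leaving out 1 Eahy926 library gave 38 to 106, 26 to 112 and 26 to 72 for these comparisons, 1121 to 1423 gained regions and 1168 to 1308 lost ones, where a group of 2 needs fewer peaks to count. The cause of the other shifts was not tested. Same-numbered replicates did not pair, and with a replicate block the counts were 132, 164 and 37.

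Among called regions the sign changed at PIGG (0.084 with an overlap of 1 bp, 0.063 with 80%) and chr20:22697335-22697835 (1.44 with 80%). In all, 225 of 441 alternative values for called regions kept their call, 213 lost it and 3 changed sign. The setting with day as a term, which keeps the untreated mean of day 1, is among these alternatives. Of regions that did not pass, signs changed with 80% overlap at the IRAK2 promoter (0.0080) and TNFAIP3 (-0.19), with 1 bp at NFKB1 (-0.55), and by fold enrichment at the IRAK2 promoter (0.061), ICAM1 (-0.022), JUNB (0.061) and KLF2 (0.085). With normal scores JUNB had 0.0049, and with depth as a term KDR had -0.14, CX3CL1 0.19, ICAM1 -0.10 and JUNB 0.020. Leave-one-out ranges that cross 0 were -0.40 to 0.13 at the IRAK2 promoter, -0.28 to 0.38 at KDR, -0.66 to 0.14 at CXCL1, -0.34 to 0.24 at CX3CL1, -0.035 to 0.065 at ICAM1, -0.28 to 0.13 at JUNB and -0.42 to 0.091 at KLF2. Without a TNFa library 59 rises fell under the filter and were not tested.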
